A study of Mus musculus with 2 samples.

Results

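Genes that take up, store, release and recycle iron and heme were followed across the CD45+ immune cells of YUMM3.3 melanomas. The set held 8 genes chosen by symbol and not by any measured value, namely Hmox1, Blvrb, Fth1, Ftl1, Tfrc, Slc11a1, Slc40a1 and Cp. Of these 8 genes, 7 were among the 12584 genes of the matrix, and Ftl1, the ferritin light chain, was not analysed here. YUMM3.3 is a mouse melanoma line with an activated Braf and without Cdkn2a, and the tumours grew under the skin of C57BL/6 mice. The record of the series gives day 12 for their removal, and a different day stands in the methods for tumour experiments of this kind. NTT marks the line that had not met targeted therapy, and RTT its derivative that is resistant to targeted therapy. No treatment of the mice is given in the labels. Each group was 1 tumour and 1 droplet library of sorted live CD45+ cells, so line, mouse, sort and library cannot be told apart, and no test was run. Mice were 6 to 12 weeks old, and their sex is not given for these tumours in the sources used here.

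Macrophages clear dying red cells and recycle their iron. Heme oxygenase 1 (Hmox1) opens the heme ring and frees its iron, and biliverdin reductase B (Blvrb) reduces heme breakdown products. Free iron is stored in ferritin, built of heavy (Fth1) and light (Ftl1) chains, or leaves the cell through ferroportin (Slc40a1), the known iron exporter, helped by the ferroxidase ceruloplasmin (Cp). Iron enters through the transferrin receptor (Tfrc), and Slc11a1 moves iron and manganese out of phagosomes. C57BL/6 mice carry a loss-of-function allele of Slc11a1, so its transcript level says nothing of transport in these animals.

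Several of these genes share a known sequence feature, the iron-responsive element, a short RNA hairpin. Iron regulatory proteins bind it when iron is scarce, which blocks translation of ferritin and ferroportin messages and protects the Tfrc message from decay. The elements are shown because translation of Fth1 and Slc40a1 is set in part outside the transcript level that was measured. In a search of annotated untranslated regions on the sense strand, the pattern was a C, any 5 bases, CAGTG and a base other than G, with 5 paired bases on either side of the loop. It was found in the 5′ untranslated regions of 3 of the 8 genes and in the 3′ untranslated region of 1, Tfrc, at 4 positions. Among all genes with such regions, 0.101% (21 of 20873) had a match in the 5′ and 0.452% (98 of 21669) in the 3′ untranslated region. As the element is known from ferritin, ferroportin and Tfrc messages, its presence in these members is no independent result about the set. A match is a description and not a tested site. Capitals mark the unpaired C and the loop of 6 bases, and positions are in GRCm38.
Fth1, chr19:9982732-9982761, plus strand: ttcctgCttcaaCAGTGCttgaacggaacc
Ftl1, chr7:45459778-45459807, minus strand: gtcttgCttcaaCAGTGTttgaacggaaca
Slc40a1, chr1:45925464-45925493, minus strand: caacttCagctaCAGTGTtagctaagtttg
Tfrc, chr16:32631219-32631248, plus strand: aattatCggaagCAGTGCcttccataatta
Tfrc, chr16:32631598-32631627, plus strand: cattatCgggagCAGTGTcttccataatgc
Tfrc, chr16:32631663-32631692, plus strand: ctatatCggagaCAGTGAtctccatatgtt
Tfrc, chr16:32631710-32631739, plus strand: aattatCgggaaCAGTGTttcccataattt

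In the NTT library 19634099 unique molecular identifiers (UMIs, which mark single captured transcripts) were counted over 2975 cells, against 44712071 UMIs over 4840 RTT cells. The median cell held 5398 UMIs (NTT) or 8336 UMIs (RTT), and the libraries shared 7 cell barcodes. The authors named 16 populations, of which 11 held at least 25 cells in both libraries. Levels are CPM (UMIs of a gene per 1000000 UMIs of the same cells) with exact Poisson 95% intervals, and ratios are log2 RTT over NTT with exact binomial 95% intervals. These intervals cover counting error only, not the difference between mice. The make-up differed widely, since monocytes were 54.3% of NTT and 4.11% of RTT cells, while macrophages were 19.6% and 82.8%. There were 17 NTT and 2001 RTT cells named TAM_C1q, a macrophage population, and 0 and 280 cells named Ctsk_Macro. All 7 macrophage markers had UMIs in both libraries, at a summed 15229.5 CPM (NTT) and 35026 CPM (RTT). Red cell RNA was scarce, since Hbb-bs, the only 1 of 6 red cell markers among the measured genes, had 8 NTT and 14 RTT UMIs. All 8 NTT UMIs of Hbb-bs were in the population named Macro.

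Over all cells, Slc40a1 and Cp were more than 2-fold lower in RTT cells, and no member was 2-fold higher. That is 2 of the 7 members lower, where 12.7% of the 10845 genes compared were, and 0 higher, where 9.76% were. Tfrc had a log2 ratio of 0.86 (0.70 to 1.03), short of 2-fold. Slc11a1 had a log2 ratio of -0.997 (-1.08 to -0.91), just short of the 2-fold line, and passed it at -1.07 with TMM and -1.06 with DESeq2 scaling, which made 3 members lower. Hmox1 (-0.20), Fth1 (-0.23) and Blvrb (0.39) stood closer to 0. The median of the 7 members was -0.23, beside 0.07 over all genes compared. Both genes called lower were scarce, with 89 and 235 UMIs over both libraries, and most of their NTT UMIs lay in 1 small population each, as described below.

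Within macrophages, 6 members had the required 50 UMIs over both libraries. Of these, 2 were at least 2-fold lower in RTT (Slc11a1 and Cp), beside 7.57% of the 10127 genes compared, and 1 was higher (Tfrc, at 1.01), beside 6.2%. The Tfrc call was lost with TMM or DESeq2 scaling, per-cell means, thinned cells and without Ctsk_Macro. Within monocytes 5 members passed the minimum, and 0 were 2-fold lower (8.5% of 8140 genes) and 0 higher (4.89%). Within dendritic cells 4 passed, and again 0 were 2-fold lower (8.36% of 7873 genes) and 0 higher (7.54%). With 4 to 7 members counted, a single gene is a larger share than any of these backgrounds, so nothing about the set is read from the counts. The member medians were -0.38 in macrophages, -0.06 in monocytes and 0.13 in dendritic cells, beside 0.05, -0.04 and 0.06 over all genes compared.

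**Figure D1:**
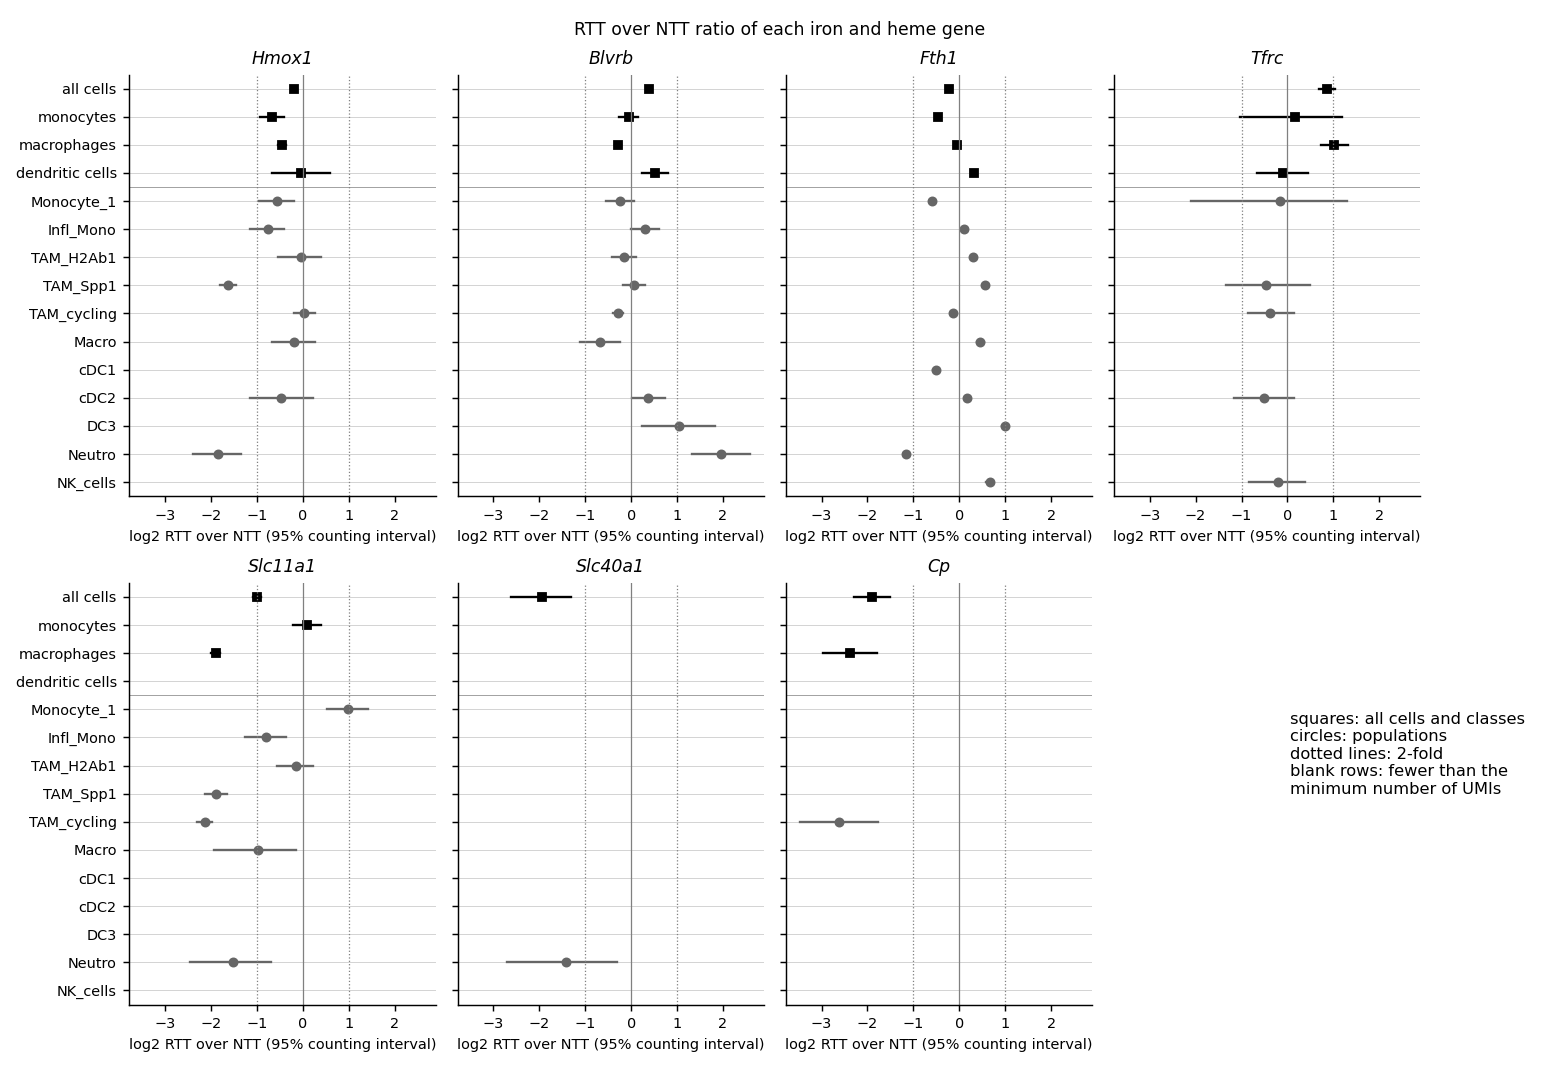
The log2 ratio of RTT over NTT CPM (x axis) is drawn for each of the 7 genes over all cells, 3 classes (squares) and 11 populations (circles), with lines for the exact binomial 95% counting interval and dotted lines at 2-fold. Rows are blank where fewer than 50 UMIs were counted. Slc11a1 lies from -2.14 in TAM_cycling to 0.98 in Monocyte_1, and Fth1 from -1.17 in neutrophils to 0.99 in DC3.

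Hmox1 (chr8:75093621-75100589, plus strand) had 3145 UMIs in NTT and 6241 in RTT cells, 160.2 CPM (155 to 166) and 139.6 CPM (136 to 143). The small difference over all cells hid lower levels within several RTT populations. In the cells named TAM_Spp1, Hmox1 stood at 428 CPM (389 to 469.8) in NTT and at 138 CPM (127 to 149.6) in RTT cells, a log2 ratio of -1.63 (-1.81 to -1.45). The share of these cells with an Hmox1 UMI, after each cell was thinned to 2000 UMIs, was 38.2% (73 of 191) in NTT and 16.6% (117 of 703) in RTT, and 59.6% and 36.4% before thinning. Neutrophils went from 589 to 163 CPM (-1.85, -2.40 to -1.34). Infl_Mono went from 194 to 114 CPM (-0.77, -1.15 to -0.40) and Monocyte_1 from 175 to 118 CPM (-0.57, -0.97 to -0.20). In these 4 populations the intervals of the levels did not overlap between libraries. Markers of cell type also differed between the libraries in TAM_Spp1, Infl_Mono and, as given below, neutrophils, and the monocyte markers differed in Monocyte_1. In TAM_Spp1 cells the 7 macrophage markers summed to 8533 and 21534 CPM and the 4 measured monocyte markers to 6711 and 2288 CPM. In Infl_Mono cells the same sums were 8319 and 32758 CPM and 11320.1 and 3714 CPM. Monocyte_1 cells held 18523 and 17364 CPM of the macrophage and 5279 and 3503 CPM of the monocyte markers. The part of these shifts in the values of any member was not tested. By the same sums, NTT TAM_Spp1 cells held more monocyte and less macrophage marker RNA than NTT Monocyte_1 cells. Their place among the macrophages follows the authors' name and not these markers. In the remaining 4 populations with enough UMIs the interval of the ratio included 0. TAM_cycling cells held 101 and 103 CPM (0.03, -0.19 to 0.26), TAM_H2Ab1 cells 132 and 128 CPM (-0.05), Macro cells 329.8 and 288 CPM (-0.20), and cDC2 cells 21.1 and 15.2 CPM (-0.47). Hmox1 was thus not lower in every macrophage population of the RTT tumour.

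The order of Hmox1 levels differed between the libraries. In NTT cells TAM_C1q came first at 714 CPM (579.8 to 870.3), ahead of neutrophils, TAM_Spp1 and Macro, and the interval of TAM_C1q overlapped that of neutrophils. The NTT TAM_C1q value rested on 17 cells, of which 1 held 31 of 98 UMIs, and stood at 518 CPM (402 to 658) without that cell. In RTT cells Macro came first at 288 CPM (213 to 380.1), followed by TAM_C1q at 215 CPM (208 to 221), and these intervals overlapped. The 2001 TAM_C1q cells held 62.7% of all RTT Hmox1 UMIs and were 41.3% of the cells. Ctsk_Macro was the lowest RTT macrophage population, at 35.6 CPM (30.1 to 41.9). Dendritic cells (14.3 and 13.8 CPM) and NK_cells (12.8 and 8.14 CPM) lay low in both libraries. The population named NK_cells serves here as the measure of free RNA, which gives UMIs in droplets of cells that do not express a gene. All 5 markers of NK and T cells had UMIs in it in both libraries, so T cells may be among these cells. After thinning, 1.83% of NTT and 2.44% of RTT NK_cells held an Hmox1 UMI, and they held a median of 5358.5 and 3967 UMIs. The dendritic cell shares of 2.94% and 2.75% lay within the NK intervals (0.379% to 5.25% and 0.0617% to 12.9%), which rest on 3 of 164 and 1 of 41 cells, so expression in dendritic cells could not be told from free RNA. Hmox1 is on the study's list of leading marker genes of its populations, so its order between populations is not independent of their definition.

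The difference between libraries in Hmox1 CPM was divided into the part from population shares and the part within populations. A population absent from a library took its level from the other library. The difference of -20.6 CPM was the sum of 127 CPM from the shares and -148 CPM from the levels within populations. With equal population shares the log2 ratio was -1.16 instead of -0.20. This value leaned on the 17 NTT TAM_C1q cells and was -0.67 without that population. Monocytes as a class had an Hmox1 ratio of -0.68 (-0.95 to -0.42) and macrophages of -0.46 (-0.55 to -0.37). Bach1, the heme-sensing repressor of Hmox1, had a ratio of -0.95 over all cells, and Nfe2l2, which encodes its activator NRF2, a ratio of 0.10. Both ratios are over all cells, whose make-up differed between the libraries, and a link to Hmox1 was not tested.

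**Figure D2:**
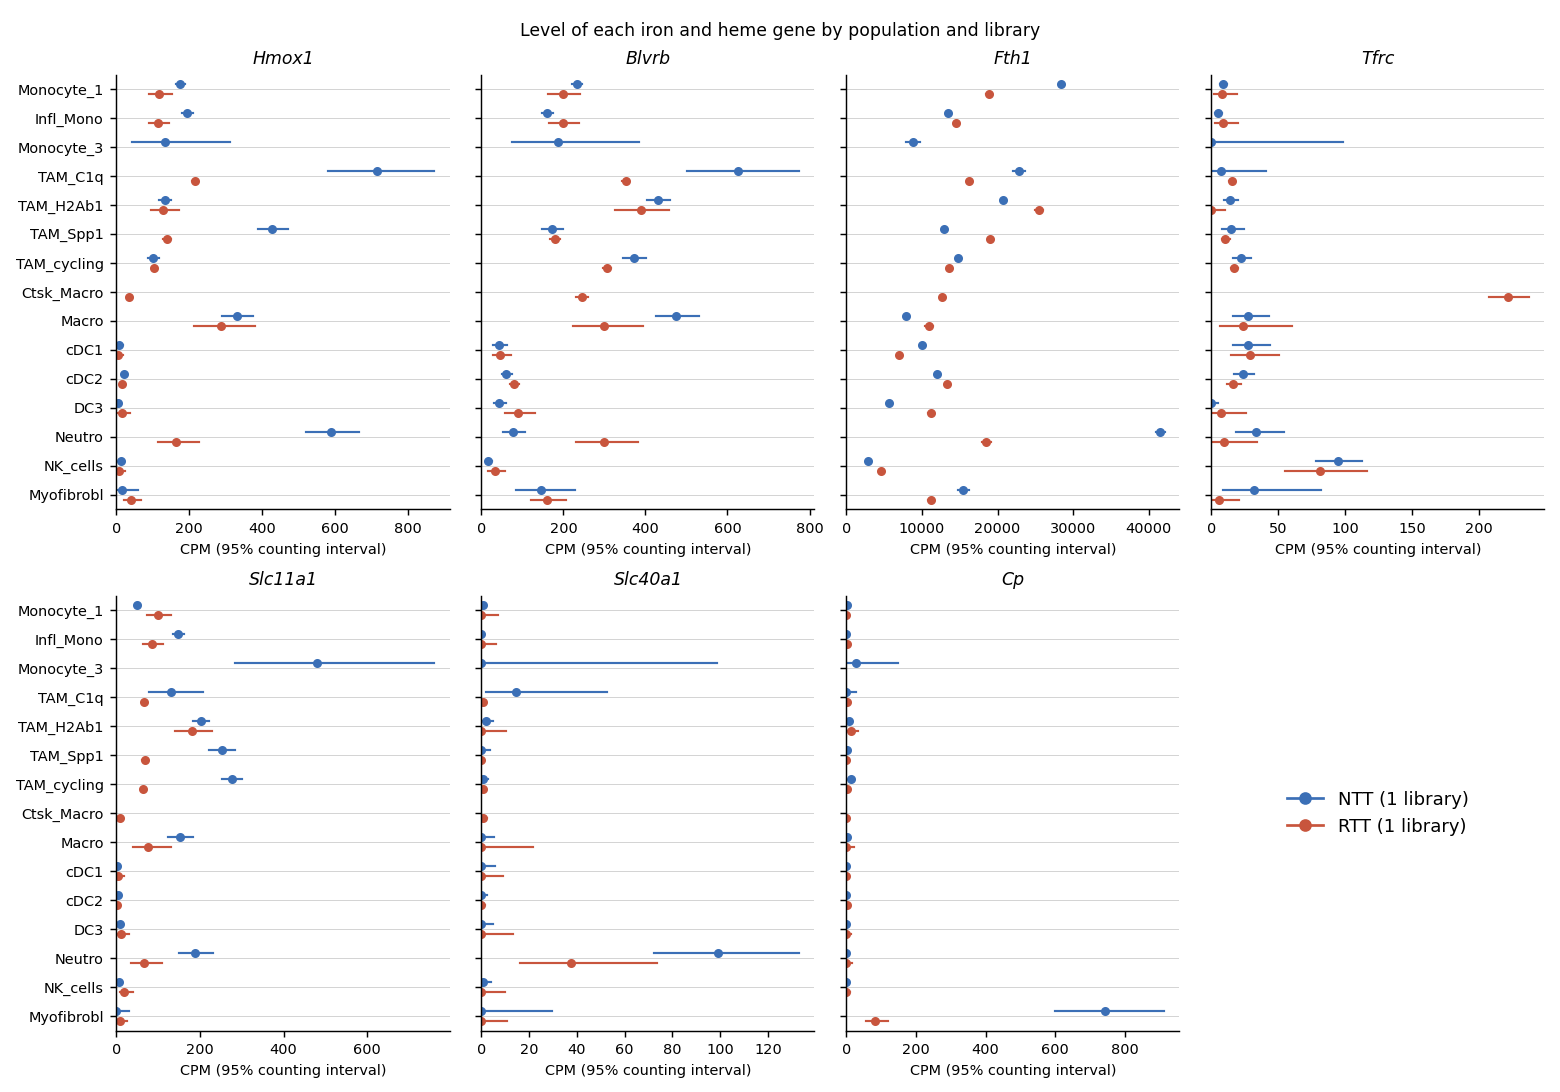
CPM (x axis, linear and starting at 0, scaled for each gene) is drawn for 7 genes in populations of at least 10 cells, in blue for the NTT and red for the RTT library, with exact Poisson 95% intervals as lines. Hmox1 stands apart between libraries in TAM_Spp1 (428 and 138 CPM) and neutrophils (589 and 163 CPM), Tfrc stands high in RTT Ctsk_Macro (222 CPM), and Cp is highest in Myofibrobl (744 and 82.7 CPM).

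Blvrb (chr7:27447978-27466144, plus strand) had 4271 NTT and 12710 RTT UMIs, 218 CPM (211 to 224) and 284 CPM (279 to 289), a log2 ratio of 0.39 (0.34 to 0.44). Its direction over all cells was opposite to that within macrophages, at 377 CPM (362 to 393) and 307 CPM (302 to 313), a ratio of -0.29 (-0.36 to -0.23). The highest Blvrb levels in both libraries were in macrophage populations, TAM_C1q at 627 CPM in NTT and TAM_H2Ab1 at 389 CPM in RTT cells. Their intervals overlapped those of the next population, Macro in NTT and TAM_C1q in RTT cells. The RTT TAM_H2Ab1 value rested on 36 cells, of which the top cell held 20% of the Blvrb UMIs. The difference of 66.7 CPM over all cells was 137 CPM from population shares and -70.5 CPM within populations, and with equal shares the ratio was -0.37. This value leaned on the 17 NTT TAM_C1q cells and was -0.12 without that population. Macro cells went from 475 CPM (425 to 529) to 299 CPM (223 to 393), a ratio of -0.67 (-1.12 to -0.24), and TAM_cycling cells from 372 to 305 CPM (-0.29). TAM_Spp1 cells stood at 171 and 178 CPM, with a ratio of 0.06 (-0.18 to 0.30). Of the 9 populations compared, the interval of the ratio lay above 0 in 4 and below 0 in 2. Blvrb was higher in the RTT library in DC3 cells, at 43.1 CPM (29.9 to 60.2) and 88.3 CPM (57.1 to 130.3), a ratio of 1.03 (0.23 to 1.82). Smaller positive ratios were found in cDC2 (0.37, 0.03 to 0.73) and Infl_Mono (0.30, 0.001 to 0.60). Blvrb in NK_cells stood at 16.6 CPM (10.4 to 25.1) and 32.5 CPM (16.8 to 56.9) from 22 and 12 UMIs, and the 7 macrophage markers summed to 896 and 4979.6 CPM in DC3 and to 376 and 3344 CPM in NK_cells. The part of macrophage or free RNA in the DC3, cDC2 and Infl_Mono values was not tested.

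The largest of the 9 Blvrb ratios was in the population named Neutro, from 77.2 CPM (53.8 to 107) to 299 CPM (230.0 to 381), a ratio of 1.95 (1.33 to 2.59). The RTT cells under this name carried fewer neutrophil and more macrophage transcripts. The 4 neutrophil markers summed to 73743 CPM and 15892 CPM, and the 7 macrophage markers to 5724 and 39473 CPM. C1qa, a complement subunit made by macrophages, reached 1000 CPM in 13 of 91 NTT and 15 of 29 RTT cells. Blvrb was 326 CPM (248 to 421) in those 15 RTT cells and 165 CPM (60.5 to 359, from 6 UMIs) in the other 14. Without the cells at 1000 CPM of C1qa or more, Blvrb stood at 57.2 CPM (35.4 to 87.5) in 78 NTT cells and its interval overlapped that of the 14 RTT cells. In the same cells Hmox1 remained apart at 692 CPM (609.9 to 783) against 137 CPM (44.6 to 321, from 5 UMIs). What part macrophage RNA has in the neutrophil values of any member was not tested. Scaling by TMM moved every ratio in neutrophils by -0.27 and by DESeq2 size factors by -0.24. It moved TAM_H2Ab1 ratios by 0.15 and 0.17 and Monocyte_1 ratios by 0.11 with DESeq2, and none of the other populations by more than 0.1.

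Fth1 (chr19:9980598-9985098, plus strand) was the best counted member, with 348016 NTT and 674054 RTT UMIs, 17725 CPM and 15075 CPM, and a log2 ratio of -0.23 (-0.24 to -0.23). The direction was not shared among populations. Of the 11 populations with a ratio, the interval lay above 0 in 7 and below 0 in 4, and counting error alone was small everywhere. Neutrophils went from 41505 to 18500.1 CPM, a ratio of -1.17 (-1.22 to -1.12), and Monocyte_1 cells from 28389.7 to 18899 CPM (-0.59). The ratio was -0.50 in cDC1 and -0.13 in TAM_cycling. DC3 cells went the other way, from 5669 to 11238 CPM (0.99, 0.92 to 1.05), as did NK_cells, from 2909.8 to 4595 CPM (0.66). Among the 57 RTT DC3 cells, the cell with the most Fth1 UMIs held 494 of 3182 (15.5%). The median DC3 cell held 3922 CPM in NTT and 5747 CPM in RTT. TAM_Spp1 cells went from 12898 to 19047 CPM (0.56), the same cells in which Hmox1 was lower in RTT. Smaller positive ratios were found in Macro (0.46), TAM_H2Ab1 (0.30), cDC2 (0.16) and Infl_Mono (0.11).

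Among populations of at least 10 cells, NK_cells held the lowest Fth1 level in both libraries, and DC3 came next in NTT cells. The macrophage markers given above for Blvrb were higher in RTT cells of both, and the part of macrophage or free RNA in their Fth1 values was not tested. Among NTT populations neutrophils and Monocyte_1 were highest, and their intervals did not overlap each other or those of the populations that followed. Among RTT populations TAM_H2Ab1 was highest at 25508 CPM, ahead of TAM_Spp1, Monocyte_1 and neutrophils, and the intervals of the last 3 formed an overlapping run. The RTT TAM_H2Ab1 value came from 36 cells, of which the top cell held 16.2% of the Fth1 UMIs. The median TAM_H2Ab1 cell held 19434 CPM, beside 19862 CPM in RTT neutrophils. The spread from lowest to highest population was thus narrower in RTT cells, 4595 to 25508 CPM, than in NTT cells, 2909.8 to 41505 CPM. In the C1qa-low neutrophils Fth1 stood at 43537 CPM (NTT) and 29861 CPM (RTT).

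Single cells differed in Fth1 far more than the library averages did. The cell at the 10th percentile of the NTT library held 3229 CPM and the cell at the 90th percentile 38747 CPM, beside 7328 and 24475 CPM in the RTT library. NTT Infl_Mono cells had a median of 9157 CPM with quartiles of 4864 and 18422 CPM, and RTT Infl_Mono cells a median of 12329 CPM with quartiles of 7639.9 and 17069 CPM. The quartiles of Monocyte_1 were 17404 and 35195 CPM in NTT and 8616 and 22116 CPM in RTT cells. In each of these populations the ranges of single cells overlapped between libraries. The macrophage ratio of -0.06 is within what the choice of average decides, since the mean of per-cell CPM gave 0.08 and thinned cells 0.08. The level of the highly similar locus Ftl1-ps1, whose counts may include reads of Ftl1, was 39.3 CPM (36.5 to 42.1) and 35.9 CPM (34.1 to 37.7). It is not used in place of Ftl1.

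**Figure D3:**
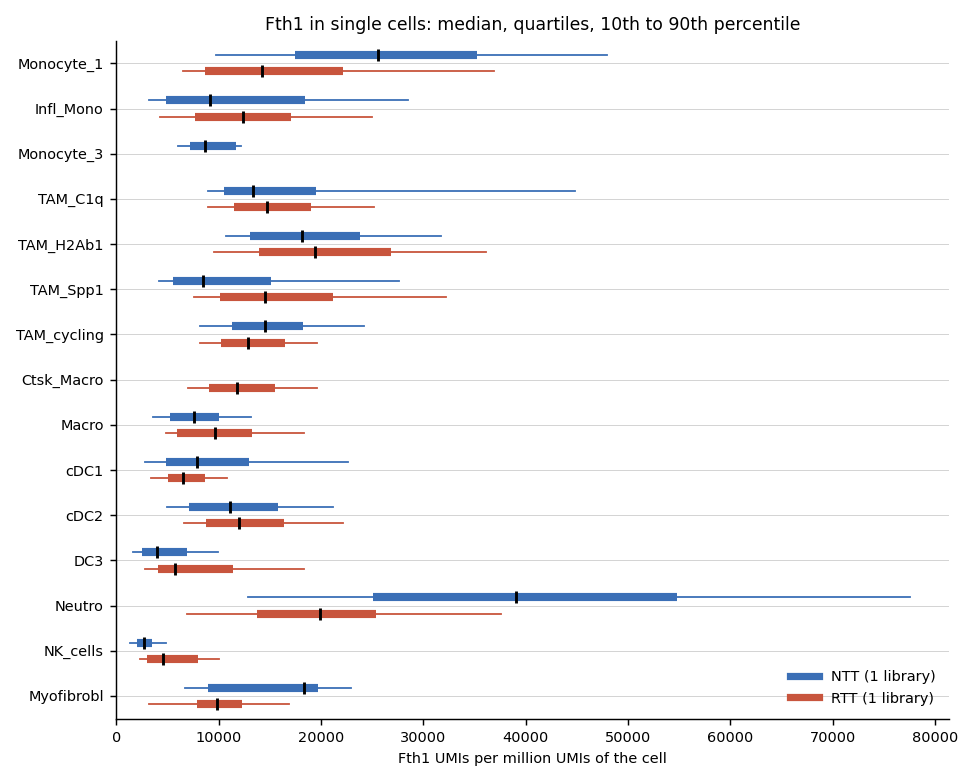
Fth1 CPM of each cell (x axis) are summarised by population in the NTT (blue) and RTT (red) library, with the median as a black tick, the quartiles as a thick bar and the 10th to 90th percentile as a thin line. The NTT Monocyte_1 median of 25542 CPM lies above the RTT upper quartile of 22116 CPM, while the ranges of TAM_cycling lie close together.

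Tfrc (chr16:32608920-32632794, plus strand) had 372 NTT and 1538 RTT UMIs, 18.9 CPM (17.1 to 20.97) and 34.4 CPM (32.7 to 36.2). Of the RTT UMIs, 902 (58.6%) were in the 280 Ctsk_Macro cells, which were 5.79% of the library and had no NTT counterpart. Ctsk_Macro cells held 222 CPM (207 to 237), 2.72 times the level of the next RTT population, NK_cells. A Tfrc UMI was found in 29.5% of Ctsk_Macro cells thinned to 2000 UMIs (82 of 278; 24.2% to 35.2%), and in 75.7% before thinning at a median of 13736.5 UMIs per cell. The thinned share was 3.31% in RTT TAM_C1q cells, 2.85% in TAM_cycling and 1.71% in TAM_Spp1 cells. Ctsk_Macro carries the name of cathepsin K, a protease best known from bone-resorbing osteoclasts, and held 8494 CPM of the 7 macrophage markers and 219 CPM of Ptprc, which encodes CD45, beside 38588 and 578 CPM in RTT macrophages together.

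The higher Tfrc level of the RTT library rested on Ctsk_Macro. Without this population the log2 ratio over all cells was -0.28 instead of 0.86, and in macrophages -0.25 instead of 1.01. All 5 populations with enough UMIs had ratios from -0.51 to -0.16, and each interval included 0. TAM_cycling cells held 22.1 CPM (15.9 to 29.9) and 17.1 CPM (14.8 to 19.6), and cDC2 cells 23.4 and 16.4 CPM. The highest NTT level was in NK_cells, 94.2 CPM (78.4 to 112), followed by neutrophils at 33.1 CPM (18.5 to 54.6), and these intervals did not overlap. RTT NK_cells held 81.4 CPM (54.9 to 116). NK_cells are thus no measure of free RNA for Tfrc. DC3 cells, taken after the values were seen, held 0 UMIs in 135 NTT cells (up to 4.68 CPM) and 2 in 57 RTT cells. As their NTT level was among the lowest, they are no independent measure of free RNA. TAM_H2Ab1 held 14.1 CPM from 31 NTT UMIs and 0 UMIs in 36 RTT cells, which allows up to 10.2 CPM. Below NK_cells, the intervals of neighbouring NTT populations all overlapped.

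**Figure D4:**
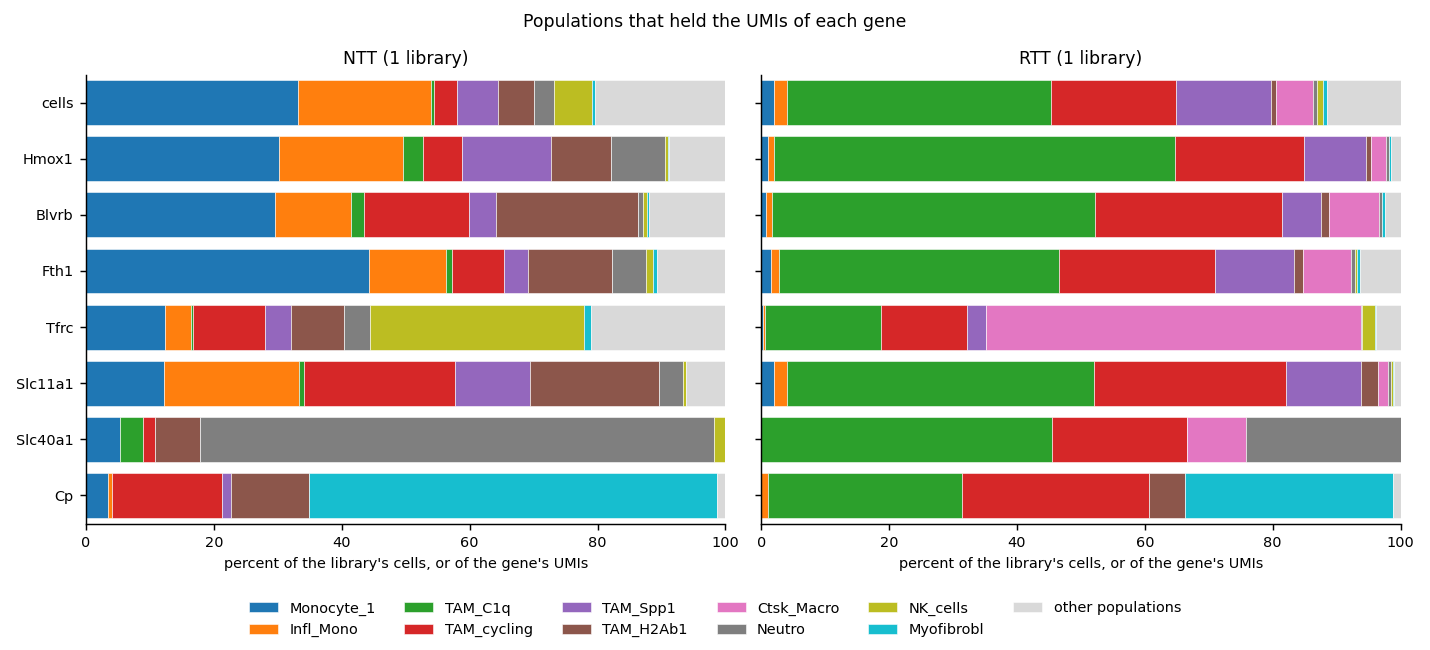
Each bar divides the cells of a library (top bar) or the UMIs of 1 gene by population, as a percent (x axis), with NTT left and RTT right. Ctsk_Macro holds 58.6% of RTT Tfrc UMIs, neutrophils 80.4% of NTT Slc40a1 UMIs, and Myofibrobl 63.7% of NTT and 32.6% of RTT Cp UMIs.

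Slc11a1 (chr1:74375195-74386062, plus strand) had 2210 NTT and 2522 RTT UMIs, 113 CPM (108 to 117) and 56.4 CPM (54.2 to 58.7). Its lower level in RTT was concentrated in macrophages, at 226 CPM (214 to 239) and 60.5 CPM (58.1 to 63.0), a log2 ratio of -1.90 (-2.0 to -1.81). TAM_cycling cells went from 276 CPM (252 to 300.2) to 62.4 CPM (58.0 to 67.0), a ratio of -2.14 (-2.31 to -1.98). TAM_Spp1 cells went from 252 to 67.9 CPM (-1.89, -2.14 to -1.64) and neutrophils from 188 to 65.3 CPM (-1.52, -2.45 to -0.70). After thinning, 41.7% of NTT (43 of 103) and 11.3% of RTT (107 of 947) TAM_cycling cells held a UMI, and 35.1% and 12.9% of TAM_Spp1 cells. Macro cells went from 151 to 76.3 CPM (-0.99) and Infl_Mono cells from 148 to 84.9 CPM (-0.80). TAM_H2Ab1 cells stood at 201 CPM (183 to 221) and 180.4 CPM (139 to 229.9), and were the macrophages in which the ratio of -0.16 (-0.56 to 0.22) included 0.

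Monocyte_1 cells went the opposite way in Slc11a1, from 50.03 CPM (44.2 to 56.4) to 98.9 CPM (73.9 to 129.7), a ratio of 0.98 (0.53 to 1.42). Their thinned share of cells with a UMI was 9.14% (86 of 941) in NTT and 18.4% (18 of 98) in RTT, and 18.4% and 32.3% before thinning, at medians of 5073.5 and 4823 UMIs. The opposite ratios of Monocyte_1 and Infl_Mono left monocytes as a class at 87.7 and 93.5 CPM (0.09, -0.21 to 0.39). Dendritic cells held 4.45 and 3.07 CPM and NK_cells 6.03 and 19.0 CPM, so the background was below the monocyte levels in both libraries. Of the -56.2 CPM difference over all cells, 13.1 CPM came from shares and -69.2 CPM from levels within populations, and the ratio was -1.02 with equal shares.

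Slc40a1 (chr1:45908068-45926523, minus strand) was rare, with 56 NTT and 33 RTT UMIs, 2.85 CPM (2.15 to 3.70) and 0.738 CPM (0.508 to 1.04). Neutrophils held 45 of the 56 NTT UMIs and 8 of the 33 RTT UMIs. Their level was 99.3 CPM (72.4 to 133) in NTT cells and 37.3 CPM (16.1 to 73.5) in RTT cells, a ratio of -1.41 (-2.71 to -0.31). The next NTT population, TAM_C1q, stood at 14.6 CPM (1.77 to 52.6) from 2 UMIs. In macrophages together, 7 NTT and 25 RTT UMIs gave 1.17 CPM (0.472 to 2.42) and 0.635 CPM (0.411 to 0.937), and dendritic cells held 0 UMIs in both libraries, which allows up to 1.17 and 1.13 CPM. Without neutrophils the ratio over all cells was -0.03 instead of -1.95. In neutrophils below 1000 CPM of C1qa the levels were 112 CPM (80.2 to 152, from 41 UMIs) and 109.9 CPM (29.9 to 281, from 4 UMIs), so no difference was detectable at this depth. Hmox1 and Slc40a1 were found together in 10 of 88 thinned NTT neutrophils (11.4%, 5.59% to 19.9%) and in 0 of 24 RTT neutrophils (up to 14.2%). Counted separately, Hmox1 was found in 41 NTT and 7 RTT of these cells, and Slc40a1 in 15 and 2. Whether they were found together more often than these separate rates give was not tested.

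Cp (chr3:19957054-20009145, plus strand) had 146 NTT and 89 RTT UMIs, 7.44 CPM (6.28 to 8.74) and 1.99 CPM (1.599 to 2.45). Of these, 63.7% of NTT and 32.6% of RTT UMIs lay in the few cells named Myofibrobl, a population that a CD45 sort would largely remove. The 14 NTT Myofibrobl cells held 93 UMIs, 744 CPM (601 to 912), and the 24 RTT cells held 29 UMIs, 82.7 CPM (55.4 to 119). After thinning, 8 of 12 NTT and 2 of 21 RTT Myofibrobl cells held a UMI, shares of 66.7% (34.9% to 90.1%) and 9.52% (1.17% to 30.4%). With fewer than 25 cells in either library, no ratio is given for this population. In TAM_cycling cells Cp went from 13.2 CPM (8.52 to 19.4) to 2.13 CPM (1.39 to 3.13), from 25 and 26 UMIs, a ratio of -2.63 (-3.48 to -1.77). After thinning, 3 of 103 NTT (2.91%, 0.605% to 8.28%) and 6 of 947 RTT (0.634%, 0.233% to 1.37%) TAM_cycling cells held a UMI. The intervals of these shares overlapped. In macrophages together the Cp ratio moved by 0.86 with cells thinned to 2000 UMIs. TAM_H2Ab1 cells held 8.16 CPM (4.84 to 12.9) and 13.9 CPM (4.51 to 32.4), from 18 and 5 UMIs, with overlapping intervals. Without Myofibrobl the ratio over all cells was -1.01 instead of -1.90.

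Across the 24 population and library groups of at least 25 cells, Hmox1 varied most closely with Slc11a1 among the members, with a Pearson r of 0.88 for log2(CPM + 10). It followed Blvrb (r = 0.73) and Fth1 (r = 0.65) less closely, and Tfrc stood apart from all of them, with r from -0.40 against Fth1 to 0.05 against Slc40a1. The groups share libraries and cells of related types, so these values are descriptions only. Among all genes with at least 500 UMIs, the profiles most like Hmox1 were those of Tlr4 (r = 0.94), which encodes the endotoxin receptor, Zeb2 (0.94) and Fgd4 (0.93). Those most like Slc11a1 were Cndp2 (0.91), Fgd4 (0.90) and Rgl1 (0.88), so Fgd4 was named for both. Blvrb was followed most closely by Tmem86a (0.94), Acp2 (0.94), a lysosomal phosphatase, and Adgre1 (0.93), which encodes the macrophage antigen F4/80. Fth1 was followed by Dok3 (0.85), Sirpb1b (0.82) and Nfe2l2 (0.82). Tfrc was followed by Fam102a (0.88), Slc1a5 (0.87), an amino acid transporter, and Nfatc1 (0.86), the master regulator of osteoclasts. Slc40a1 was followed by Retnlg (0.98), Hcar2 (0.95) and Osgin1 (0.95), and Cp by Lipg (0.88), Sos1 (0.87) and Cd300e (0.85). These names depended on the measure. With rank correlation 0 of the 3 were kept for Tfrc, Slc40a1 and Cp, 1 for Hmox1 and Fth1, and 2 for Slc11a1 and Blvrb. With groups of at least 100 cells, 0 were kept for Slc40a1 and Fth1 and 1 for each other member.

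The 7 members were set among 111 genes of 11 iron and heme lists, of which 94 were measured and 87 had the required UMIs over all cells. Of these 87 genes, 7 were at least 2-fold higher and 10 at least 2-fold lower in RTT cells, 43 lay above 0 and 44 below, and their median ratio was -0.00. As shares of the 87 genes these are near the 9.76% higher and 12.7% lower over all genes, so nothing is read from the counts of the lists. Iron uptake had the highest median, 0.86, with 4 of 9 compared genes 2-fold higher and 1 lower. That median is the ratio of Tfrc itself, which rested on Ctsk_Macro. The list's median was 0.24 in macrophages, -0.15 in monocytes and 0.13 in dendritic cells. Steap3, a ferrireductase that works with the transferrin receptor, went from 5.86 to 16.7 CPM (1.51, 1.23 to 1.81), and Slc39a8, a metal importer, from 5.86 to 15.5 CPM (1.40). Steap4, another ferrireductase, went from 4.99 to 11.6 CPM (1.22), and 77.8% of its UMIs were in Ctsk_Macro. The other gene 2-fold higher was Slc11a2, the relative of Slc11a1 that carries iron out of endosomes, at 9.12 and 19.6 CPM (1.11), and the gene lower was Lcn2, which binds bacterial iron carriers and is abundant in neutrophils, at 21.8 and 0.716 CPM (-4.93). Within macrophages Steap3 had a ratio of 0.52 (0.17 to 0.88), Steap4 of 2.83 (1.98 to 3.84) and Slc39a8 of -0.03 (-0.33 to 0.28). Iron export and ferroxidases had the lowest median, -1.90 over 3 compared genes, which are Slc40a1, Cp and Prnp. That median is the ratio of Cp itself, whose NTT UMIs lay mostly in Myofibrobl.

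Among the 5 genes of heme breakdown that were measured, 0 were 2-fold higher and 0 lower over all cells, with a median of 0.21. Hmox2, the constitutive heme oxygenase, stood at 225 and 259 CPM (0.21), and Blvra, the other biliverdin reductase, at 95.6 and 146 CPM (0.61). Of the 9 compared genes of heme and haemoglobin uptake and transport, 1 was 2-fold higher (Slc46a1, a heme and folate carrier, at 1.53) and 2 lower. Hp (haptoglobin), which binds free haemoglobin, went from 231 to 17.6 CPM (-3.71, -3.82 to -3.60), and Cd163, the receptor for haptoglobin and haemoglobin complexes, from 37.6 to 13.3 CPM (-1.50, -1.66 to -1.34). Both were also lower within macrophages, Hp from 125 to 9.88 CPM (-3.66) and Cd163 from 118 to 14.96 CPM (-2.98). Macro, which held 47.2% of the Cd163 UMIs of both libraries, had 100 of the 582 NTT and 26 of the 4009 RTT macrophages, and Infl_Mono, which is not among the macrophages, held 52.8% of the Hp UMIs. The 5 compared ferritin turnover genes, the 6 of iron sensing and the 5 of ferroptosis defence had 0 genes past 2-fold in either direction, with medians of -0.17, -0.39 and -0.37.

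Of 10 genes of phagosomal and mitochondrial iron transport, 0 passed 2-fold, with a median of 0.36, and Slc11a1 was the lowest of them. Of 14 genes that control heme and iron genes in macrophages, 0 were 2-fold higher and 2 lower, with a median of -0.28. Spic, which drives the red pulp macrophage programme of iron recycling, went from 9.52 to 1.297 CPM (-2.88). Hif1a, the oxygen-regulated transcription factor, went from 429 to 186 CPM (-1.21, -1.25 to -1.16), and from 302 to 183 CPM within macrophages (-0.72). Among the 10 compared targets of NRF2, 0 were 2-fold higher and 3 lower, with a median of -0.31. Slc7a11, the cystine importer, went from 102 to 19.9 CPM (-2.36), Gsr, glutathione reductase, from 218 to 45.6 CPM (-2.26), and Osgin1 from 18.7 to 6.51 CPM (-1.52). Neutrophils held 29.5% of the Slc7a11 and 31.6% of the Osgin1 UMIs of both libraries. Within macrophages these 3 genes had ratios of -2.33, -1.70 and -0.75. Hmox1, itself a known target of NRF2, had a macrophage ratio of -0.46. The log2 ratio of a list's summed CPM had the opposite sign to its median for heme synthesis (-0.31 against 0.29) and the NRF2 targets (0.06 against -0.31).

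**Figure D5:**
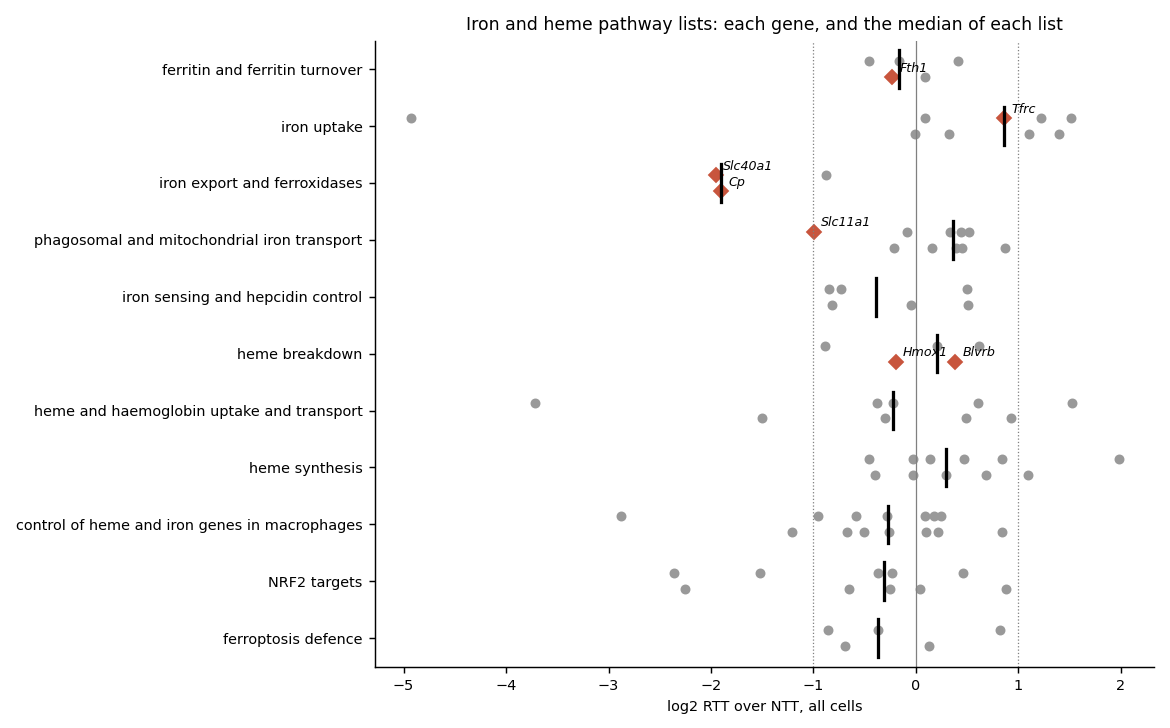
Each point is the log2 ratio of RTT over NTT CPM over all cells (x axis) of 1 compared gene, by list, with the 7 members as red diamonds, black lines for list medians and dotted lines at 2-fold. Medians run from -1.90 for iron export and ferroxidases (the ratio of Cp) to 0.86 for iron uptake (the ratio of Tfrc).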

How the data were processed

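The authors sorted live CD45+ cells from 1 NTT and 1 RTT tumour and built droplet-based 3′ libraries. Per the labels and the study's methods, reads were processed with Cell Ranger 6.1.1 against a prebuilt mm10 reference, cells with over 1000 genes were kept, and genes had to be found in at least 5 cells of each of several experiments. Ribosomal and mitochondrial genes were removed. Raw UMI counts were deposited by the authors, together with a table that gives every cell's library and population. These names come from clusters of a batch-corrected map. CPM here is therefore relative to the UMIs of the deposited genes only. No per-cell column of another sample was present (0 columns left unused).

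UMI counts were summed per gene over the cells of a population, class or library and divided by their total. Monocytes joined Monocyte_1, Monocyte_3 and Infl_Mono, macrophages joined Macro, Ctsk_Macro and the TAM populations (TAM_C1q, TAM_Spp1, TAM_H2Ab1 and TAM_cycling), and dendritic cells joined DC3, cDC1 and cDC2. With 1 library per group no test was run. Ratios needed 50 UMIs over both libraries and 25 cells in each, levels needed 10 cells, and a ratio of at least 2-fold was counted. Intervals are exact (Poisson, binomial and Clopper-Pearson, 95%). Shares of cells with a UMI were taken after thinning each cell to 2000 UMIs, leaving out 107 NTT and 63 RTT cells with fewer. No doublet caller was run, and an alternative left out the deepest 5% of cells. Ratio and interval code was tested on simulated data.

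All members were named. Of the list genes, those named were the 3 with the largest ratio per list and direction among genes past 2-fold with at least 500 UMIs. For each member the 3 genes with the most similar profile were named. Genes of the lists outside this rule (Slc11a2, Lcn2, Slc46a1, Spic, Bach1, Nfe2l2, Hmox2, Blvra and Prnp) were chosen after their values were seen, to account for small counts or for their known roles. A result for 1 list gene is not reported here. The members, lists and classes were chosen with earlier results of these data known. Positions and untranslated regions were read from GENCODE M21 (GRCm38), the authors' build in another annotation release. Alternatives were TMM (edgeR 4.0.16) and DESeq2 1.42.0 scaling, scaling without the members, per-cell means, thinned cells, stricter cell filters, other minimums and folds, and equal population shares. Leaving out Ctsk_Macro, TAM_C1q, neutrophils or Myofibrobl was chosen after seeing the data. Software was R 4.3.3 and Python 3.11.15 (pandas 2.3.3, scipy 1.17.1, matplotlib 3.10.9, numpy 2.4.6).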

Additional observations from a re-analysis of the deposited data

Results flagged for a closer look

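In 3 members the ratio of RTT over NTT had opposite directions in different populations, each at least 1.5-fold with an interval off 0. The difference between populations was not tested, since each library is 1 tumour.

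Slc11a1 was higher in RTT Monocyte_1 cells, with a log2 ratio of 0.98. It was lower in RTT Infl_Mono (-0.80), Macro (-0.99), neutrophils (-1.52), TAM_Spp1 (-1.89) and TAM_cycling cells (-2.14). In C1qa-low neutrophils the Slc11a1 intervals of the libraries overlapped.

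Fth1 was higher in RTT DC3 (0.99) and NK_cells (0.66) and lower in RTT Monocyte_1 cells (-0.59) and neutrophils (-1.17). In RTT DC3 the cell with the most Fth1 UMIs held 15.5% of them.

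Blvrb was higher in RTT DC3 (1.03) and neutrophils (1.95) and lower in RTT Macro cells (-0.67). In RTT neutrophils, 15 of 29 cells had C1qa at 1000 CPM or more, beside 13 of 91 NTT cells.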

How the results depend on the processing

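Of 208 recomputed member ratios, 141 moved by less than their counting interval, 66 moved further and 1 called value changed sign, Tfrc in macrophages, which was -0.25 without Ctsk_Macro. The number of members 2-fold higher over all cells (0) became 1 with a fold of 1.5 and 1 without TAM_C1q. The number lower over all cells (2) became 0 with a minimum of 500 UMIs, 4 with equal population shares and 1 without neutrophils. It was 3, with Slc11a1 added, under TMM scaling, DESeq2 scaling, scaling without the members, a fold of 1.5 and without TAM_C1q, also with equal shares. In macrophages the number higher (1, Tfrc at 1.01) became 0 with TMM scaling, DESeq2 scaling, per-cell means, thinned cells and without Ctsk_Macro, and the number lower (2) became 1 with a minimum of 500 UMIs. In monocytes the number lower (0) became 1 with a fold of 1.5. Other ratios short of 2-fold changed sign. Over all cells Tfrc (0.86) was -0.09 with equal shares, -0.18 with equal shares without TAM_C1q and -0.28 without Ctsk_Macro. Blvrb (0.39) was -0.37 with equal shares and -0.12 with equal shares without TAM_C1q. Fth1 in macrophages (-0.06) was 0.08 with per-cell means, 0.08 with thinned cells and 0.02 without the deepest 5% of cells. Tfrc in dendritic cells (-0.10) was 0.17 without the deepest 5% of cells. The cause was not tested, except that leaving out a population or raising a minimum removes its UMIs. No paired analysis was possible because each group is 1 library and the labels carry no shared replicate number. Depth limits Slc40a1, Cp and Tfrc most, and 1 tumour per group limits every comparison.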
